A study of Caenorhabditis elegans with 2 samples.

Results

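The 351 intervals described here are places in the Caenorhabditis elegans genome where chromatin immunoprecipitation of CEH-16 gave an interval of the pooled list with its summit within 200 bp of a nuclear tRNA gene. They are 1.17% of the 30000 intervals of that list. The windows of 200 bp around the 612 nuclear tRNA genes cover 273 kb, or 0.272% of the genome. The choice used position and the annotation alone, and no signal. The 22 mitochondrial tRNA genes were left out.

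Chromatin was prepared from whole L2 larvae of mixed sex of the strain OP82, with genotype unc-119(tm4063) III; wgIs82, where wgIs82 is the inserted transgene that carries ceh-16 fused to eGFP. The samples are biological replicates 1 and 2 of 1 group, with no second stage, strain or factor. The labels describe the target as the eGFP fusion and name ceh-16 as the antibody, and an untagged or input library was not analysed here. The measurement is therefore an average over every tissue of the larva, and cells that carry the fusion cannot be told apart from cells that do not.

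Transfer RNA genes are transcribed by RNA polymerase III from a promoter inside the gene. The A box and the B box lie within the transcribed sequence, the factor TFIIIC binds them, and TFIIIB then sits just upstream of the 5′ end and brings in the polymerase. CEH-16 is the worm's engrailed-class homeodomain protein, known for its role in the seam cells of the epidermis, and homeodomain proteins are usually studied at genes of RNA polymerase II. Worm tRNA genes are scattered over all chromosomes with many on X, often in identical copies, and many lie in introns of protein-coding genes.

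The windows below show why copies matter for reading these intervals. Each holds 100 bases upstream, the tRNA gene in capitals and 30 bases downstream, on the strand of the tRNA gene, from the RefSeq sequence of WBcel235 (ce11). The first 3 are proline tRNA genes that share 1 identical sequence of 72 bases and differ in what surrounds it. F46G11.t1 at X:5801372-5801573 (plus strand) had the highest pooled signal of all intervals at tRNA genes, C16B8.t1 at X:3969456-3969657 (plus strand) had the lowest signal of its identical copies, and F02H6.t1 at IV:14225002-14225203 (plus strand) had no summit within 200 bp in the pooled list or in either replicate list.
F46G11.t1: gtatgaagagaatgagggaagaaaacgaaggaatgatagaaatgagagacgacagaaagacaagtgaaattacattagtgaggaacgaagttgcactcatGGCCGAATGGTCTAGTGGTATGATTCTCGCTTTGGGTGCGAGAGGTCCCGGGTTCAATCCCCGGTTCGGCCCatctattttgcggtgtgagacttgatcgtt
C16B8.t1: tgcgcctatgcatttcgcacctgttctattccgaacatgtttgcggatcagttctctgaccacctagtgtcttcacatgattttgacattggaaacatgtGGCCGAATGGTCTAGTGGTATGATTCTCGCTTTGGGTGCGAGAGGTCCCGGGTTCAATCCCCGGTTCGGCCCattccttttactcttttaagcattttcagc
F02H6.t1: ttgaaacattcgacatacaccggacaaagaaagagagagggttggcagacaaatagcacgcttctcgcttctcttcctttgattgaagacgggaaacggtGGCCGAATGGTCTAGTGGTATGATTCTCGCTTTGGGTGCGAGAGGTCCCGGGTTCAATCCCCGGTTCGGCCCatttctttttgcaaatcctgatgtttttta
The pooled summit at F46G11.t1 falls on base 44 of its window, upstream of the gene. The summit assigned to C16B8.t1 lies past the 202 bases printed, 132 bp from the 5′ end of the gene. The B-box core GGTTCNA starts at base 151 in all 3.

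A further 3 windows are of genes with no identical copy, and from 96.2 to 100% of the 31-base words in their intervals occur once in the genome. They are the isoleucine gene F57F5.t1 at V:12002076-12002290, the serine gene K02A4.t1 at X:12889840-12890051 and K11H12.t1 at IV:658081-658296, the 1 nuclear gene annotated for selenocysteine. All 3 are on the plus strand and are shown in the same way.
F57F5.t1: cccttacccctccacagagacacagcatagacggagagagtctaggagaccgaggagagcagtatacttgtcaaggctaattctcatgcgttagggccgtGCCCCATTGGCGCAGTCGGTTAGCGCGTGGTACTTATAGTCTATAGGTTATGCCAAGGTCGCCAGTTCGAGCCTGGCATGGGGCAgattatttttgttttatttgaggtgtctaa
K02A4.t1: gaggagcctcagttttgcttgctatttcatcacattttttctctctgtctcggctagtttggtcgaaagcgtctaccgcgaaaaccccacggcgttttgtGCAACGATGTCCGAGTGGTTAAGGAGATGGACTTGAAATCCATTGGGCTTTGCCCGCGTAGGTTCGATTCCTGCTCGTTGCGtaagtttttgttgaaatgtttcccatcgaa
K11H12.t1: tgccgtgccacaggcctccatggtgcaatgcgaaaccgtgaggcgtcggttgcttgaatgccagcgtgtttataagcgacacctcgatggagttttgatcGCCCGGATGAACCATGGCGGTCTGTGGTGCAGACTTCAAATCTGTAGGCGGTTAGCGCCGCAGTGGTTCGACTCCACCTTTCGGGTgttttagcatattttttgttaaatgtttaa
The pooled summit falls on base 6 at F57F5.t1 and on base 23 at K11H12.t1, both upstream of the gene, and on base 144 at K02A4.t1, inside it. The core GGTTCGA starts at base 161 at K02A4.t1 and at base 165 at K11H12.t1, and these letters are not in the window of F57F5.t1.

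Of the 351 intervals, 41 overlapped a peak of the IDR list by at least 1 bp, which is 11.7% with a 95% Wilson interval of 8.73 to 15.5. The IDR list, which is labelled optimal, holds the 1358 peaks that the authors kept by the irreproducible discovery rate. That method compares the ranks of peaks between lists, and which ranks decided this list is not given in the sources used here. Overlap with the list thus does not mean a like rank in both replicates. Over all 30000 pooled intervals the share was 4.79%. The excess did not extend to the stronger IDR peaks: with those at or above the median signal of the IDR list alone, 4 of the 351 overlapped (1.14%), beside 2.39% of all pooled intervals. Among these 4 are both intervals at F41D9.t3, with pooled signals of 34.6 and 5.96, which overlap the same IDR peak. The Wilson intervals cover counting error only. The 41 intervals lay on 37 different IDR peaks, because 4 weak intervals beside F33G12.t1, F41D9.t3, F09B9.t1 and C14B9.t2 shared a peak with a stronger interval at the same gene. Counted from the other list, 38 of the 1358 IDR peaks, or 2.80%, had their own summit within 200 bp of a tRNA gene.

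Signal at tRNA genes was moderate. Signal is the enrichment value that the authors' peak caller wrote for each interval, on a scale whose normalization is not given in the sources used here. The median pooled signal was 11.2 over the 351 intervals, with a range from 3.804 to 43.5, beside a median of 6.05 and a highest value of 193.7 over all pooled intervals. It was 29.2 over the 41 intervals that overlap the IDR list, with a range from 4.20 to 43.5, and 10.2 over the other 310, with a range from 3.804 to 26.7. IDR overlap was decided from these same signals, so that difference describes the lists and is no test. All pooled intervals that overlap the IDR list had a median of 34.7, so the tRNA intervals there sat on its lower side. None of the 383 pooled intervals with signal of 45 or more lay at a tRNA gene.

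The division between the groups followed signal, apart from the 4 weak flanking intervals. All 17 tRNA intervals with signal from 30 to 45 overlapped the IDR list, as did 99.5% of all pooled intervals in that range. Between 25 and 30 the count was 14 of 16, beside 77.9% of pooled intervals. Between 20 and 25 it was 6 of 29, beside 13.9%, and between 10 and 20 it was none of 137, beside 0.932%. Under 10 it was 4 of 152 (2.63%), beside 0.177%, and these 4 are the ones that share a peak with a stronger neighbour.

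**Figure D1:**
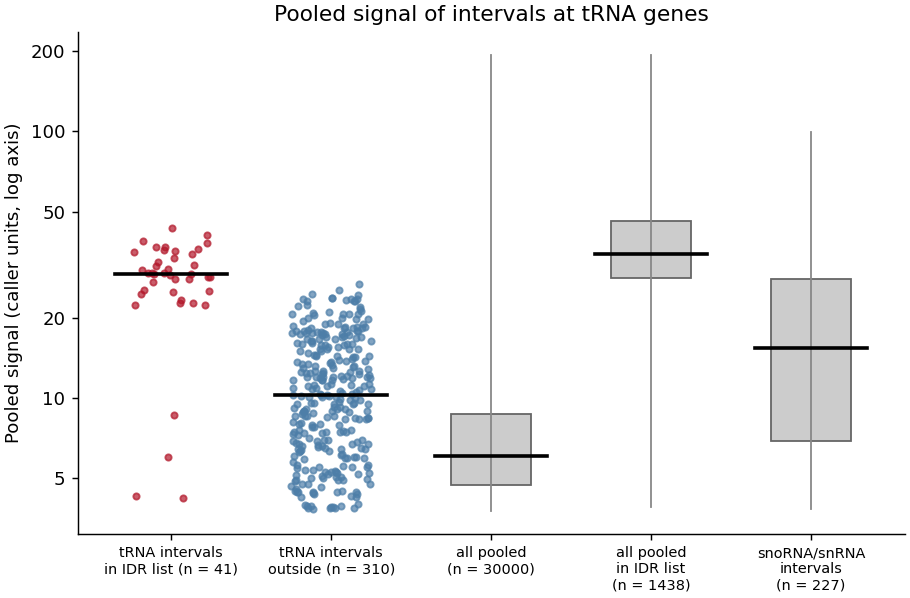
Pooled signal, in the peak caller's units on a log axis, of the tRNA intervals that overlap the IDR list (41 points) and of those that do not (310 points), with black bars at the medians of 29.2 and 10.2. Grey boxes span the 25th to the 75th percentile and grey lines the full range for all pooled intervals, those in the IDR list and those at snoRNA or snRNA genes, whose medians were 6.05, 34.7 and 15.3.

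Signal values differed between the lists for the same place. Of the 41 intervals, 22 had exactly the coordinates of their IDR peak, and among these the IDR list gave a lower signal than the pooled list in 18, by over 10% in 8, and a higher one in 4. Among the 19 with other coordinates it was lower in 11 and higher in 8, the 4 flanking intervals included. At R04D3.t2 the pooled list gave 38.7 and the IDR list 30.02, while at F46G11.t1 the values were 43.5 and 42.9. The IDR peaks with a summit at a tRNA gene had a median of 26.7 in the IDR list, beside 33.5 for that whole list. Why the lists differ was not tested, and pooled values are used below unless the IDR list is named.

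Small nucleolar and small nuclear RNA genes are another class of short noncoding genes. Their 227 intervals overlapped the IDR list in 79 cases, or 34.8%, with a median pooled signal of 15.3 and a highest value of 99.6. A tRNA interval had a snoRNA or snRNA gene within 200 bp in 1 case of 351, so the sets are almost separate. Intervals at tRNA genes thus overlapped the IDR list in a share that lay between those of all pooled intervals and of snoRNA or snRNA intervals, a difference with no test here.

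The 11 tRNA intervals in the IDR list that also overlapped a top interval in each replicate, at 10 genes, are named in the next paragraphs. Top means the 1358 intervals of highest signal in a replicate list, as many as the IDR list has peaks, with signal of at least 13.6 in replicate 1 and 13.3 in replicate 2. Each replicate value is the signal of the replicate interval with the largest overlap.

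The strongest interval, X:5801267-5801562, lies between the divergent proline genes F46G11.t2 and F46G11.t1. Its signal was 43.5 in the pooled list, 26.4 in replicate 1 and 26.6 in replicate 2, so the replicates were nearly equal. The summit lies upstream of both tRNA genes and 2625 bp from the nearest protein-coding gene, F46G11.4. A second proline gene, Y59E1B.t2, had its summit farther from any protein-coding gene, at 11262 bp from B0294.3. Its interval X:1880777-1881072 had signals of 38.3 pooled, 17.6 in replicate 1 and 18.7 in replicate 2, which again differ little.

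Next in pooled signal stood a cysteine and a valine gene, both higher in replicate 2. C37A2.t1, a cysteine gene inside cye-1, which encodes the cell-cycle regulator cyclin E, had signals of 40.9 pooled, 15.0 in replicate 1 and 24.3 in replicate 2 at I:6781625-6781920. R04D3.t2, a valine gene, had 38.7 pooled, 14.6 in replicate 1 and 25.4 in replicate 2 at X:13306876-13307171. Its summit lay 128 bp from the chemoreceptor-family gene srxa-8. For the cysteine and the valine gene the summit was upstream of the tRNA gene, by 30 and 10 bp.

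F57F5.t1, the single-copy isoleucine gene printed above, had signals of 36.9 pooled, 18.7 in replicate 1 and 22.4 in replicate 2 at V:12001933-12002228. It lies near gcy-33, which encodes a soluble guanylate cyclase of oxygen-sensing neurons, with the summit 284 bp from that gene. C28G1.t1, a glutamate gene, had 36.3 pooled, 22.2 in replicate 1 and 18.5 in replicate 2 at X:8835891-8836186. Its summit lay 23 bp from the annotated start of C28G1.2, so tRNA gene and protein-coding start cannot be told apart as the site of the signal.

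Both intervals at the asparagine gene F41D9.t3 qualified, since they overlap the same IDR peak. The gene lies in sulp-3, which encodes a sulfate permease family transporter. The stronger interval, X:8404251-8404546, had signals of 34.6 pooled, 27.1 in replicate 1 and 14.2 in replicate 2, with its summit 100 bp upstream of the gene. The weaker, X:8404457-8404752 on the other side, had 5.96 pooled, 16.1 in replicate 1 and 14.2 in replicate 2. Its pooled value is far below its replicate values, and replicate 2 gives both intervals the same value.

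The remaining 3 had summits inside or downstream of the gene. F15B9.t1, an alanine gene in the inverted formin gene inft-2, had signals of 33.4 pooled, 18.02 in replicate 1 and 14.5 in replicate 2 at V:13003379-13003674. K02A4.t1, the single-copy serine gene printed above, had 28.3 pooled, 15.4 in replicate 1 and 14.7 in replicate 2 at X:12889835-12890130. Its summit lay 4994 bp from the nearest protein-coding gene, gpc-1 for a G protein gamma subunit. K11E4.t5, a lysine gene in pix-1, which encodes a guanine nucleotide exchange factor that interacts with p21-activated kinase, had 24.6 pooled, 14.6 in replicate 1 and 13.6 in replicate 2 at X:13730307-13730602. At these 3 the replicates differed less than at the cysteine and valine genes.

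At other intervals of the IDR list the replicates were farther apart. The following 4 were chosen after their values were seen, to show the extent of this. At the tryptophan gene sup-21, known from amber suppressor mutations, the signals were 25.4 pooled, 21.2 in replicate 1 and 4.31 in replicate 2. At the isoleucine gene F22F1.t7 they were 29.4 pooled, 19.6 in replicate 1 and 3.75 in replicate 2. The opposite held at the serine gene C53C7.t2, with 36.9 pooled, 10.1 in replicate 1 and 27.7 in replicate 2, and at the glycine gene F49D11.t1, with 35.1 pooled, 10.2 in replicate 1 and 26.6 in replicate 2. Neither replicate was the higher one throughout. The selenocysteine gene K11H12.t1, printed above, had 35.9 pooled, 23.1 in replicate 1 and 13.1 in replicate 2, a gap of the size seen at R04D3.t2.

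The 5 strongest tRNA intervals outside the IDR list overlapped its signal range from below. C33G3.t2, a lysine gene, had signals of 26.7 pooled, 18.7 in replicate 1 and 11.3 in replicate 2 at X:14063919-14064214. Its summit lay 137 bp from dyc-1. R01H5.t1, a threonine gene, had 25.4 pooled, 2.40 in replicate 1 and 19.1 in replicate 2 at X:12563618-12563913. Those values show 1 replicate carrying the interval at R01H5.t1 and a smaller gap at C33G3.t2. F52H2.t2, an asparagine gene, had 24.3 pooled, 11.6 in replicate 1 and 12.9 in replicate 2 at X:2549391-2549686. Its summit lay 555 bp from the multivitamin transporter gene smvt-1. The arginine genes F29C4.t1, in the collagen gene col-99, and T06H11.t2, in the potassium channel gene unc-58, had 24.4 and 23.7 pooled, 6.13 and 6.32 in replicate 1, and 15.6 and 16.1 in replicate 2. Of the 41 intervals in the IDR list, some had lower pooled signals than these 5, down to 22.2 at C14B9.t2 apart from the 4 flanking ones.

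The replicates found tRNA genes to a like extent and ranked them differently. Replicate 1 held 285 intervals with a summit within 200 bp of a tRNA gene, 1.01% of its 28214, and replicate 2 held 328, 1.09% of its 30000. Among the 1358 top intervals the counts were 43 (3.17%) in replicate 1, 39 (2.87%) in replicate 2 and 32 (2.36%) in the pooled list. Of the 351 pooled tRNA intervals, 268 overlapped an interval of replicate 1, 300 one of replicate 2, 227 one of each and 10 neither. For all pooled intervals the share with both was 29.6%, beside 64.7% at tRNA genes.

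Overlap with the top intervals showed less sharing. Of the 351, 45 (12.8%) overlapped a top interval of replicate 1, beside 4.86% of all pooled intervals. In replicate 2 the count was 46 (13.1%), beside 4.76%. Both replicates together had 12 (3.42%, Wilson interval 1.97 to 5.88), beside 2.61% of all pooled intervals, so the share for both lay near that of the list as a whole. Among the 41 intervals in the IDR list, 11 were top in both replicates, 16 in replicate 1 only, 11 in replicate 2 only and 3 in neither. The 1 other interval that was top in both lies at the alanine gene Y65A5A.t1, with a pooled signal of 21.1, and is named here only for completing the count. Its replicate 1 value, 9.88, is below the lowest top signal of 13.6. Overlap with any top interval counts as top, while the value comes from the largest overlap. The share top in both was 26.8% of the 41, beside 52.3% of all 1438 pooled intervals in the IDR list. The 41 also had the lower median pooled signal, 29.2 beside 34.7, and its part in this difference was not tested.

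Signal in the replicates was weakly related across tRNA intervals. Over the 227 with a value in each, Spearman's rho was 0.26 and Pearson's r of log2 signals 0.28, beside 0.47 and 0.57 over 8874 pooled intervals. Within the 41 of the IDR list rho was −0.34, and within the 186 others it was 0.06. Points in such a relation share their libraries, 34 of the 351 intervals share a replicate interval with another, and the IDR list was chosen from these signals, so the values are a description. All 1414 pooled intervals of the IDR list with both values had a rho of 0.23. The replicates differed over 2-fold at 14 of the 41, or 34.1%, with replicate 1 higher at 8 and replicate 2 higher at 6, beside 31.8% of those 1414.

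**Figure D2:**
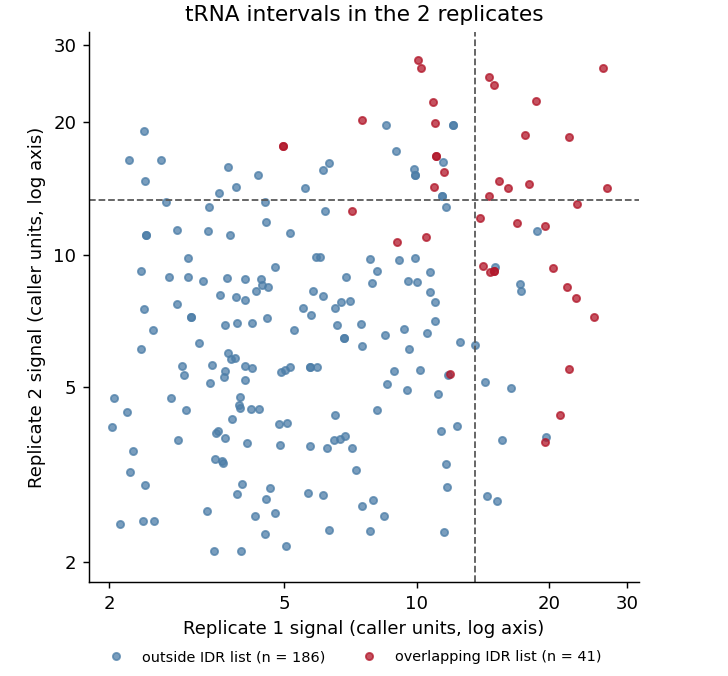
Signal in replicate 1 against replicate 2, in caller units on log axes, for the 227 tRNA intervals with an interval in each, red where the pooled interval overlaps the IDR list. Dashed lines mark the lowest signal of a top interval, 13.6 in replicate 1 and 13.3 in replicate 2, and most red points lie past 1 line and not past both.

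Summits were placed relative to the tRNA gene, not spread evenly over the window. Along the strand of the nearest tRNA gene, 176 of the 351 summits lay upstream of the 5′ end, 99 inside the gene and 76 downstream. Each side reaches 200 bp from a gene whose median length is 72 bp, so these counts are not per base. The densest stretch of 20 bp ran from 40 to 21 bp upstream and held 65 summits, and the next, from 20 to 1 bp upstream, held 46. Stretches from 0 to 59 bp, inside the gene, held 21, 32 and 21. Intervals in the IDR list had 24 summits upstream, 10 inside and 7 downstream, and the others 152, 89 and 69. The split was thus of a similar kind in both groups, with medians at −16 and 2 bp from the 5′ end.

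In each replicate list more summits lay upstream than inside or downstream, again on stretches of unlike width. Replicate 2 had 178 summits upstream, 80 inside and 70 downstream, with 66 in the stretch from 40 to 21 bp upstream. Replicate 1 had 124 upstream, 85 inside and 76 downstream, with 31 in that stretch, a flatter profile than in replicate 2. Its stretches from 0 to 59 bp, inside the gene, held 22, 23 and 27. The median summit was at 16 bp from the 5′ end in replicate 1, beside −10 bp in replicate 2. The 38 IDR peaks had 24, 11 and 3. The upstream stretch beside the 5′ end is where TFIIIB sits at tRNA genes, and CEH-16 and TFIIIB were not compared here.

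**Figure D3:**
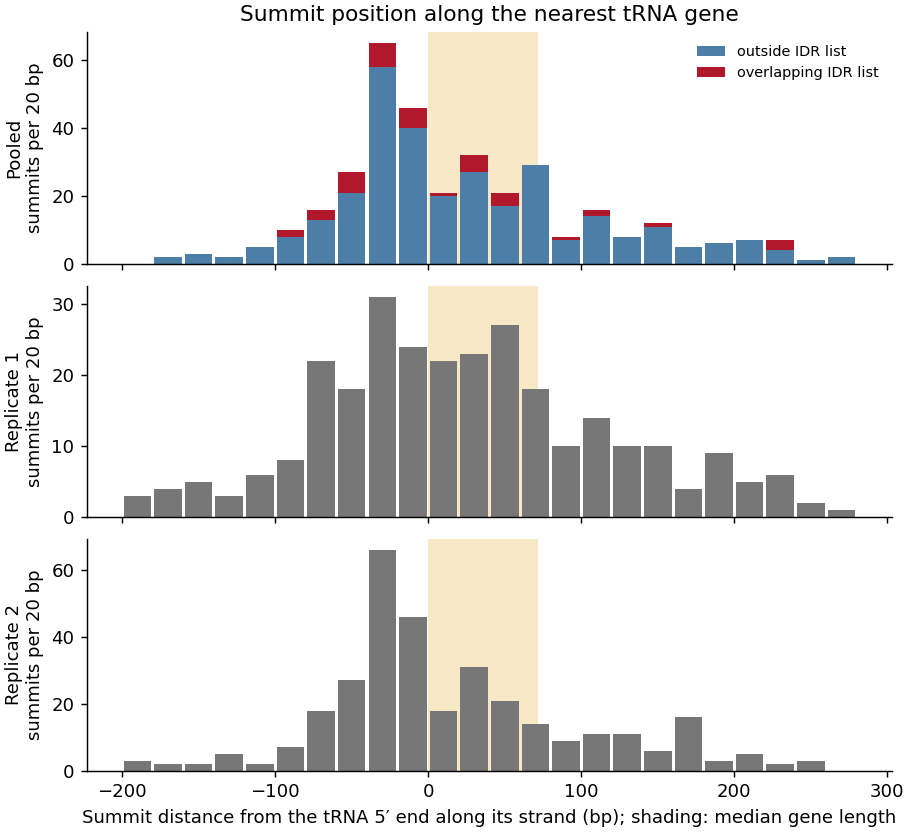
Number of summits per 20 bp by distance from the 5′ end of the nearest tRNA gene along its strand, for the pooled list (red where in the IDR list), replicate 1 and replicate 2. Shading marks the median gene length of 72 bp, and the tallest bar in each panel is at 40 to 21 bp upstream, with 65, 31 and 66 summits.

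Intervals were most frequent within 50 bp of the gene. There were 99 with the summit in the gene, 69 at 1 to 25 bp, 91 at 26 to 50 bp, 56 at 51 to 100 bp and 36 at 101 to 200 bp. Beyond the limit, 19 lay at 201 to 300 bp, 34 at 301 to 400 bp and 37 at 401 to 500 bp, so counts did not fall steadily with distance. Median signal was highest, at 13.7, between 26 and 50 bp, was 7.09 between 101 and 200 bp and ranged from 5.61 to 6.53 in the 3 stretches beyond. Just inside the limit were the intervals of R11G10.t1 at 193 bp, with a signal of 4.93, and F18G5.t1 at 190 bp, with 6.09. Just outside were those of T04D3.t2 at 219 bp, with 8.75, and Y18H1A.t1 at 220 bp, with 4.88.

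Pairs of tRNA genes shared intervals. Of the 351, 32 lay within 200 bp of 2 tRNA genes, and 15 of these had the summit upstream of both, 4 of them in the IDR list. With the summit upstream of 1 gene it was 1 of 11, and upstream of neither 0 of 6. The share was 11.7% over the 351 and 4.79% over all pooled intervals, and with so few intervals no difference was tested. The proline pair at F46G11, the serine pair at C53C7 and the glycine pair at F49D11 had the summit upstream of both, each with its genes on opposite strands. Such an interval cannot be given to 1 gene. Conversely, 19 tRNA genes were nearest to 2 intervals each, and the 351 intervals had 332 different nearest genes.

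Starts of protein-coding genes lay near a smaller share of the tRNA intervals than of the whole list. The summit lay within 1000 bp of a protein-coding TSS, the annotated 5′ end of a transcript, at 12 of the 41 (29.3%, Wilson interval 17.6 to 44.5) and at 119 of the other 310 (38.4%, 33.2 to 43.9). Over all pooled intervals that share was 46.7%, and over those in the IDR list 55.7%. The median distance to a TSS was 1514 bp in the 41 and 1431 bp in the 310. Summits lay inside a protein-coding gene at 19 of the 41 (46.3%) and at 152 of the 310 (49.0%), beside 60.6% of all pooled intervals. Of all 612 nuclear tRNA genes, 36.9% had a protein-coding TSS within 1000 bp of the 5′ end and 47.4% lay inside a protein-coding gene. Over the 351 intervals the shares were 37.3% and 48.7%, near those of tRNA genes with or without an interval.

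Counted by gene, 364 of the 612 nuclear tRNA genes (59.5%) had a pooled summit within 200 bp, 42 (6.86%) had one that overlapped the IDR list, and 248 had none. Of those 248, 182 had no summit in either replicate list. Genes without an interval were single-copy in 32.7%, beside 23.8% of the 42 and 16.15% of the 322 with an interval outside the IDR list. Their median distance to the next tRNA gene was 2310 bp, beside 5199 and 4488 bp, and 41.5% were on X, beside 61.9% and 45.7%. In an intron lay 48.8%, 38.1% and 45.3%. The letters TTTT, the terminator of RNA polymerase III, occurred within 30 bases after the gene in 97.6%, 97.6% and 100% of these groups in the same order. The core GGTTCNA occurred in the gene in 87.5%, 92.9% and 85.1%. Which of the genes are transcribed in L2 larvae was not measured here.

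By amino acid, the share of genes with any interval ran from 40.0% for histidine (8 of 20) to 77.4% for valine (24 of 31), leaving out the 1 selenocysteine gene, which had an IDR interval, and the 5 genes with no amino acid given, which had none. Glycine had 5 of 55 genes with an IDR interval, and alanine, isoleucine and leucine had 4 each, of 34, 29 and 39. Aspartate, glutamine and phenylalanine had none, of 27, 27 and 14 genes. The Wilson intervals of these 3 reached up to 12.5, 12.5 and 21.5%, and so included the share of 6.86% over all 612 genes. In these 3 the highest pooled signals were 19.7, 20.6 and 20.7, all below the lowest value in the IDR list outside the 4 flanking intervals, 22.2. With so few genes an isotype, the differences were not tested.

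**Figure D4:**
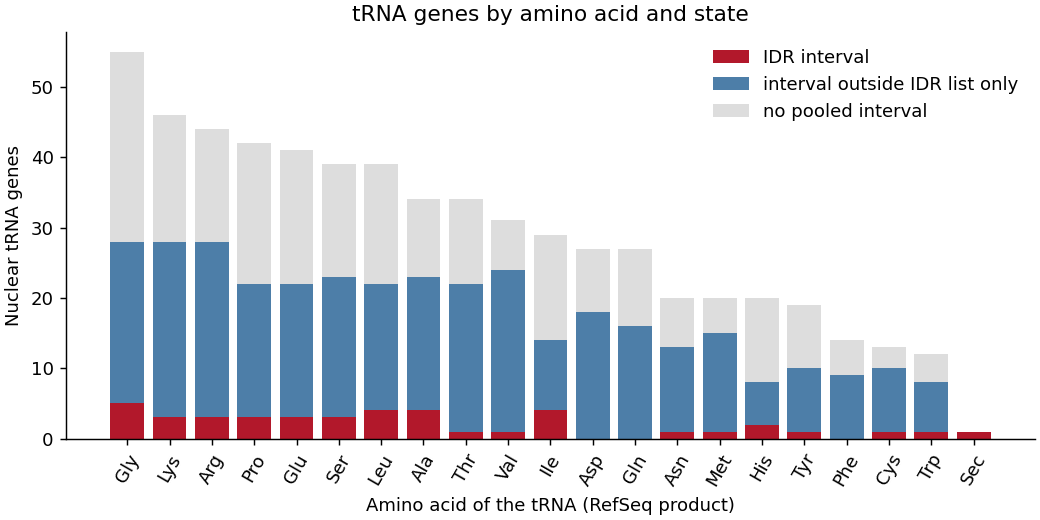
Number of nuclear tRNA genes by amino acid, divided into genes with an interval in the IDR list (red), with an interval outside it only (blue) and with no pooled interval (grey). Red reaches 5 genes for glycine and is absent for aspartate, glutamine and phenylalanine.

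The X chromosome held many of these genes and intervals. It carries 276 of the 612 tRNA genes (45.1%) and had 165 of the 351 intervals (47.0%, Wilson interval 41.9 to 52.2), beside 19.5% of all pooled intervals. Of the 41 in the IDR list, 25 were on X (61.0%, 45.7 to 74.3), and of the 310 others 140 (45.2%). Per gene, 173 of the 276 on X (62.7%) and 191 of the 336 on autosomes (56.8%) had an interval, and 26 (9.42%) and 16 (4.76%) had one in the IDR list. Pooled intervals of any kind on X also overlapped the IDR list more often, at 6.41% beside 4.40% on autosomes, and that part in the tRNA values was not tested. The median signal of tRNA intervals was 12.2 on X and 10.2 on autosomes.

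Among autosomes, chromosome III had the highest share of tRNA genes with an interval, 44 of 64 (68.8%), and the lowest with an IDR interval, 1 of 64 (1.56%). Chromosome IV had the lowest share with an interval, 33 of 71 (46.5%), and 3 genes in the IDR list (4.23%). For the IDR list the Wilson intervals of chromosome III, 0.276 to 8.33%, and of X, 6.51 to 13.4%, overlapped in part, and the difference was not tested.

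**Figure D5:**
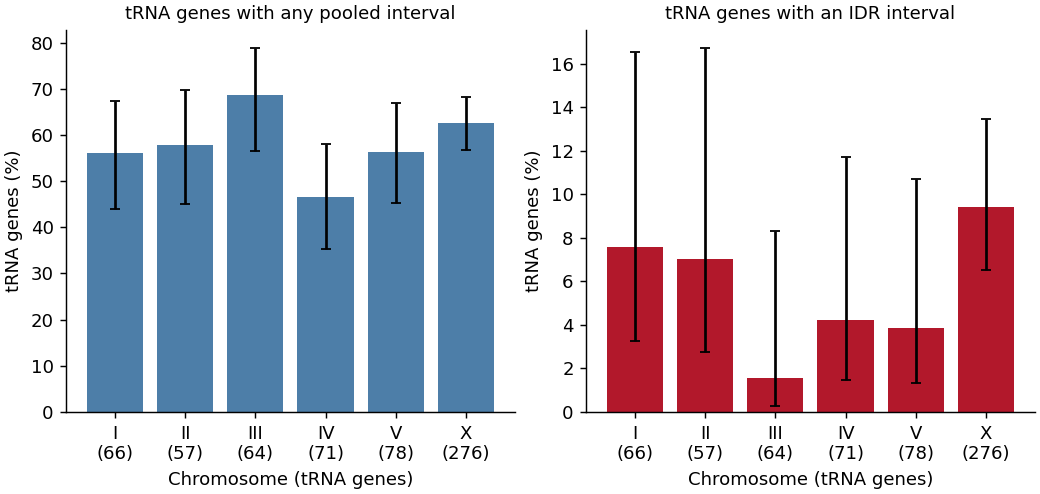
Percentage of nuclear tRNA genes on each chromosome with any pooled interval (left) and with an interval in the IDR list (right), with 95% Wilson intervals and the number of genes under each name. The X chromosome, with 276 genes, stands at 62.7% and 9.42%.

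Identical copies of a tRNA gene did not have like signals. The 612 genes have 200 different sequences, of which 57 occur in 2 or more genes, 469 genes in all. In 14 of the 20 families with 10 or more copies there were genes in every state: in the IDR list, with an interval outside it, and without one. Over all 612 genes, 42 (6.86%) had an IDR interval and 364 had any interval. How many families would hold every state at those shares was not computed. Replicate signals were themselves weakly related across tRNA intervals, with a rho of 0.26, and the part of this in the spread between copies was not tested. The proline family printed above has 24 copies on 5 chromosomes, and 12 had no pooled interval, 6 of them with none in any list. Signals of the others ran from 4.25 at C16B8.t1 to 43.5 at the pair F46G11.t1 and F46G11.t2. The next highest were the divergent pair W09D6.t1 and W09D6.t2, which share 1 interval of 23.3 pooled and 18.1 in replicate 2, with no summit within 200 bp in replicate 1.

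Other large families spanned ranges of a like size. The 29 glycine genes of the largest family had 14 with an interval, from 4.22 to 35.1, and the 25 lysine genes of the next had 18, from 4.33 to 28.8. The 21 identical aspartate genes had 15, from 3.84 to 19.7, with none in the IDR list. An interval was present at 64.4% of genes that have an identical copy and at 43.4% of the 143 single-copy sequences, while the share with an IDR interval was 6.82% and 6.99%.

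Reads from identical copies can be placed only by their flanks, so uniqueness was measured beside these values. A 31-mer is unique when it occurs once in the genome on either strand. The median gene had no unique 31-mer, and 474 of 612 had none at all, while the 100 bases on either side had a median of 100% unique. The share over a whole interval had a median of 81.2% in the 41 of the IDR list, with a lowest value of 56.8%, and 80.1% in the 310, with a lowest of 24.8%. Over all pooled intervals it was 100%. Uniqueness was therefore lower than elsewhere at tRNA genes and near equal in both groups. How the authors treated reads that match several places is not given in the sources used here, and its part in the signal or in the upstream summits was not tested.

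Sequence within 100 bp of the summit differed between tRNA intervals and the list. For the B-box core this follows from the rule, and for the other measures its part was not tested. The core GGTTCGA, on either strand, was in 46.2% of the 351 windows of 201 bases, in 53.7% of the 41 and in 45.2% of the 310, beside 2.08% of all pooled windows. Homeodomain cores were searched as TAATTA, which is its own reverse complement, and as TAATTG on both strands. Either was in 30 of the 351 (8.55%), in 3 of the 41 (7.32%) and in 27 of the 310 (8.71%), beside 20.9% of all pooled windows and 15.4% of those in the IDR list. The median GC content of the windows was 45.3% at tRNA genes, 50.2% in the 41 and 44.8% in the 310, beside 38.3% over all pooled windows. All pooled windows in the IDR list also had a median GC content of 44.8%, and whether base composition bears on these shares was not tested. A match is a description of these letters and not a binding site.

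Genes that make or use tRNAs were looked up in the IDR list by their promoters. Of 19 genes for RNA polymerase III subunits and its factors, none had an IDR peak within 1000 bp of a TSS, which allows a share of up to 16.8%, while 14 (73.7%) had a pooled interval there. Among 32 aminoacyl-tRNA synthetase genes 1 had a peak, ears-2, which encodes a glutamyl-tRNA synthetase, and among 8 genes for tRNA processing, modification and export 1 had a peak, pus-1, a pseudouridine synthase gene. A pooled interval was present at 18 of the synthetase genes (56.2%) and at 7 of the 8 others (87.5%). Over all 19973 protein-coding genes the shares were 3.53% with an IDR peak and 47.5% with a pooled interval. The peak at ears-2, IV:390362-390657, had signals of 27.6 in the IDR list, 7.12 in replicate 1 and 21.6 in replicate 2. At pus-1, V:16795004-16795299, the values were 26.8 in the IDR list, 13.9 in replicate 1 and 13.3 in replicate 2. Both IDR signals lay below that list's median of 33.5, as most of those at tRNA genes did.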

How the data were processed

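CEH-16 ChIP-seq was analysed in 2 replicates of 1 group, from interval lists on ce11 (WBcel235). Per the file headers, the pooled and replicate relaxed lists (peaks and background) were made from alignments and a further file whose role is not stated, and the IDR list from those lists. The names of aligner and peak caller were not given in the sources used here. The deposited signal of each interval is on the caller's scale, and the deposited −log10 q-value is capped at 3.7 in the pooled list, where 97 of the 351 tRNA intervals and 2508 of all 30000 reach it, so intervals were ranked by signal. Summits were deposited as distances from each interval's first base. The files give no counts, so depth is unknown, and 2 replicates limit the precision.

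Computed here, with Python 3.11.15, pandas 2.3.3 and numpy 2.4.6, were distances from summits to tRNA genes of Ensembl release 115 (amino acids from RefSeq, 612 of 612 genes matched, 5 with none given), overlaps of at least 1 bp, the share of unique 31-mers, motif counts in windows of 201 bases and Wilson intervals. Correlations used scipy 1.17.1 and figures matplotlib 3.10.9. Each replicate value is that of the interval with the largest overlap, and a top interval is any of the 1358 of highest signal. By gene, a replicate value needs its own summit within 200 bp. The functions were tested on simulated data. The members, gene lists and rules were chosen with earlier results of these data known. No test was run, because there is 1 group and intervals are not replicates of a condition. The rule for named genes took those in the IDR list and top in both replicates, the 5 strongest outside it, those nearest the 200 bp limit and listed genes with an IDR peak. Outside the rule, chosen after their values were seen, are the 4 IDR genes with unlike replicates, the selenocysteine gene K11H12.t1, Y65A5A.t1, the proline genes C16B8.t1, F02H6.t1, W09D6.t1 and W09D6.t2, and the genes of the flanking intervals. The alternatives are given in the closing section. Lists on ce10 were not used.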

Additional observations from a re-analysis of the deposited data

How the results depend on the processing

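Of 116 values recomputed under 11 alternatives for 11 results, at least 10 do not depend on the changed choice. Of the other 106, 95 stayed within the 95% interval of the reported value. Some of these 95 could not move either. Leaving out intervals that share an IDR peak with a stronger one, for example, cannot change results on intervals outside the IDR list. The count of 95 is therefore no measure of stability. With the summit inside the gene, 1.63% of tRNA genes had an IDR interval and unique 31-mers outside the IDR list had a median of 79.3%. With a distance of 500 bp, the median signal outside the IDR list was 8.87, summits inside the gene made up 22.45% and unique 31-mers had a median of 81.95%. With IDR peaks at or above their median signal, 1.14% of tRNA intervals (4 of 351) overlapped, beside 2.39% of all pooled intervals. The median pooled signal of those 4, the flanking interval of 5.96 at F41D9.t3 included, was 37.7, and 0.654% of tRNA genes had such an interval. Top intervals of a single replicate were also used in place of the IDR list. The median pooled signal of tRNA intervals overlapping them was 22.7 with replicate 2 and 25.4 with replicate 1. Members and signals there still came from the pooled list, so neither replicate was fully left out. Beyond 1000 bp of a TSS, 54.1% of the intervals were on X. The alternative that leaves out intervals sharing an IDR peak with a stronger one was chosen after seeing the data. Causes of these shifts beyond the change in members were not tested. No paired analysis was possible because there is 1 group and no test. Limits are the absence of an untagged library here, unknown depth, 2 replicates and tRNA gene bodies that reads cannot tell apart.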
